A study of Mus musculus with 6 samples.

Results

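The 10 genes described here encode subunits of the ISWI chromatin remodelers and Pole4, the partner of Pole3 in DNA polymerase epsilon. They are Chrac1, Pole3, Pole4, Baz1a, Baz1b, Baz2a, Smarca5, Smarca1, Rsf1 and Bptf. They were taken by name from a table of 26743 genes, made from RNA-seq of whole testis, with 3 WT and 3 Trf2-/- mice, all at postnatal day 21. Trf2, listed in the table as Tbpl1, is a relative of the TATA-box binding protein, and the mice labelled Trf2-/- carry its inactivation, while the labels give no other allele, agent or strain for either genotype. The study's methods, where they describe another line of mice, state a 129/SvPas background. Chrac1 was selected on its decrease in this same comparison, so its difference is given as a description without a test. The other 9 genes were named because their proteins share complexes with Chrac1, with the ISWI ATPases or, for Pole4, with Pole3. All 10 genes passed the filter on low counts, as did 16924 genes of the table, and their counts ran from 520 to 11701 per mouse.

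ISWI remodelers use the energy of ATP to slide nucleosomes along DNA and to space them evenly. Each complex is built around an ATPase, Smarca5 (SNF2H) or its paralogue Smarca1 (SNF2L), and a large regulatory subunit decides which complex is formed. Smarca5 with Baz1a (ACF1) forms ACF, and the addition of the small histone-fold proteins Chrac1 and Pole3 gives CHRAC. Smarca5 also pairs with Baz1b in WICH, with Baz2a in NoRC, which acts on ribosomal RNA genes, and with Rsf1 in RSF, whereas Smarca1 with Bptf forms NURF. Pole3 has a further life with Pole4 as a histone-fold pair of DNA polymerase epsilon. In the testis, spermatogenic cells reorganise their chromatin extensively during meiosis and again when histones are replaced in spermatids.

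Reads counted on genes numbered 21582123 to 29859347 per WT mouse and 15187062 to 24530489 per Trf2-/- mouse, and Trf2-/- mouse 3 had the fewest. Levels are given as CPM, the counts of a gene scaled by library size with TMM factors, or as RPKM, the same value divided by the gene length in kilobases where genes are compared with each other. Tbpl1 was 4.82-fold lower in the Trf2-/- mice (log2 fold change -2.27, SE 0.06), which checks the labels of the genotypes. Because whole testis was sequenced, fewer cells of a type and less RNA per cell cannot be told apart. Among the markers of the cell types, most of those tested for spermatids (9 of 10) and all 5 for pachytene spermatocytes were lower in the mutant testes. Their values are given below, and several of the spermatid markers were near the floor.

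RefSeq promoters of 7 of the 10 genes were available, 300 bases each in the build GRCm38.p6, covering 250 bases before to 50 after the annotated start. Promoters of Chrac1, Baz1a and Rsf1 were not analysed here. The sequences below are those of Pole3, the histone-fold partner of Chrac1, and of Baz2a and Smarca1, which changed in opposite directions in the comparison that follows. Capitals mark exact matches, on either strand, to the GC box GGGCGG (read as CCGCCC on the other strand), to CCAAT (read as ATTGG) and to TGACG, which is contained in the cAMP response element.
Pole3, chr4:62524965-62525264, minus strand: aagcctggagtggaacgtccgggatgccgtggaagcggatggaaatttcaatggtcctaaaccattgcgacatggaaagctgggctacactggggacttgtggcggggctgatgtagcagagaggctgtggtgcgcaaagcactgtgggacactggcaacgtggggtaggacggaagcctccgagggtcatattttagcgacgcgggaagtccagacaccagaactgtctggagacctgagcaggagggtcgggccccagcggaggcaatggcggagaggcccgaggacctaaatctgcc
Baz2a, chr10:128092533-128092832, plus strand: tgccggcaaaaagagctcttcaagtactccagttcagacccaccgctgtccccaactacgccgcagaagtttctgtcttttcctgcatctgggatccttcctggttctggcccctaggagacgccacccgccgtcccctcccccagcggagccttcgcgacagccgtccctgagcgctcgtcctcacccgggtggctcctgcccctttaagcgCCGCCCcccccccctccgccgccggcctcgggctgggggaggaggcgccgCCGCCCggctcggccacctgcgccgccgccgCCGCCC
Smarca1, chrX:47892564-47892863, minus strand: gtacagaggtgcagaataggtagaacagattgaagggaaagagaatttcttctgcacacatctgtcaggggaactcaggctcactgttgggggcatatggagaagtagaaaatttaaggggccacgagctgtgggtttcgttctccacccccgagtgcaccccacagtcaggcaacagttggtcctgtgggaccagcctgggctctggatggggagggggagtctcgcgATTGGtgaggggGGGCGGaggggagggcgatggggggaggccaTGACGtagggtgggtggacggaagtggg
The Pole3 promoter held none of the 5 motifs searched, the Baz2a promoter held 3 GC boxes, and that of Smarca1 held 1 GC box, 1 CCAAT and 1 TGACG. The GC box was found in 6 of the 7 genes, against 35.7% of 32851 promoters of the same length. CCAAT was found in 2 of the 7, Baz1b and Smarca1, against 37.4% of promoters, and TGACG also in 2, Smarca5 and Smarca1, against 20.8%. The full cAMP response element TGACGTCA, within which TGACG lies, and the TATA box TATAAA were in none of the 7, against 1.79% and 13.6% of promoters. These matches describe letters in a window only, and nothing about binding of a factor is drawn from them.

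Chrac1 (ENSMUSG00000068391, chromosome 15 from 72920822 to 72927984 of NCBIM37, plus strand) encodes the smaller histone-fold protein of CHRAC. Its counts were 3809, 3299 and 2589 in the WT mice and 961, 923 and 520 in the Trf2-/- mice. At equal scaling this was 132.7, 126.4 and 124.2 CPM in WT and 38.1, 39.6 and 32.9 CPM in Trf2-/- testis. The genotypes did not overlap, and the lowest WT mouse lay far above the highest mutant mouse. With n = 3 mice, the WT mean was 128 CPM with an SD of 4.43, and the Trf2-/- mean was 36.9 CPM with an SD of 3.53. The log2 fold change was -1.79 (SE 0.07, 95% interval -1.95 to -1.63), or 3.46-fold lower. The choice of Chrac1 rested on its place in the order by p, where it stood next after Tbpl1 among the 7631 genes with a lower estimate in the mutant, so this place is no finding. It was followed there by Taf6, a TFIID subunit (log2 fold change -1.21), and by March11, a membrane-bound RING-type ubiquitin ligase (log2 fold change -1.56).

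Pole3 (ENSMUSG00000028394) encodes the histone-fold protein that pairs with Chrac1. The WT mice had 131.4, 126.7 and 124.3 CPM, and the mutant mice 130.5, 126.2 and 127.7 CPM. The values of the genotypes interleaved, and the log2 fold change of 0.01 (SE 0.04, 95% interval -0.09 to 0.11) did not pass the test (adjusted p = 0.916, edgeR). Pole4 (ENSMUSG00000030042), the partner of Pole3 in DNA polymerase epsilon, was at 56.4, 52.6 and 56.9 CPM in WT and 52.6, 56.5 and 54.1 CPM in Trf2-/- testis. Its genotypes overlapped too, with a log2 fold change of -0.02 (SE 0.06, 95% interval -0.15 to 0.11, adjusted p = 0.785, edgeR).

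**Figure D1:**
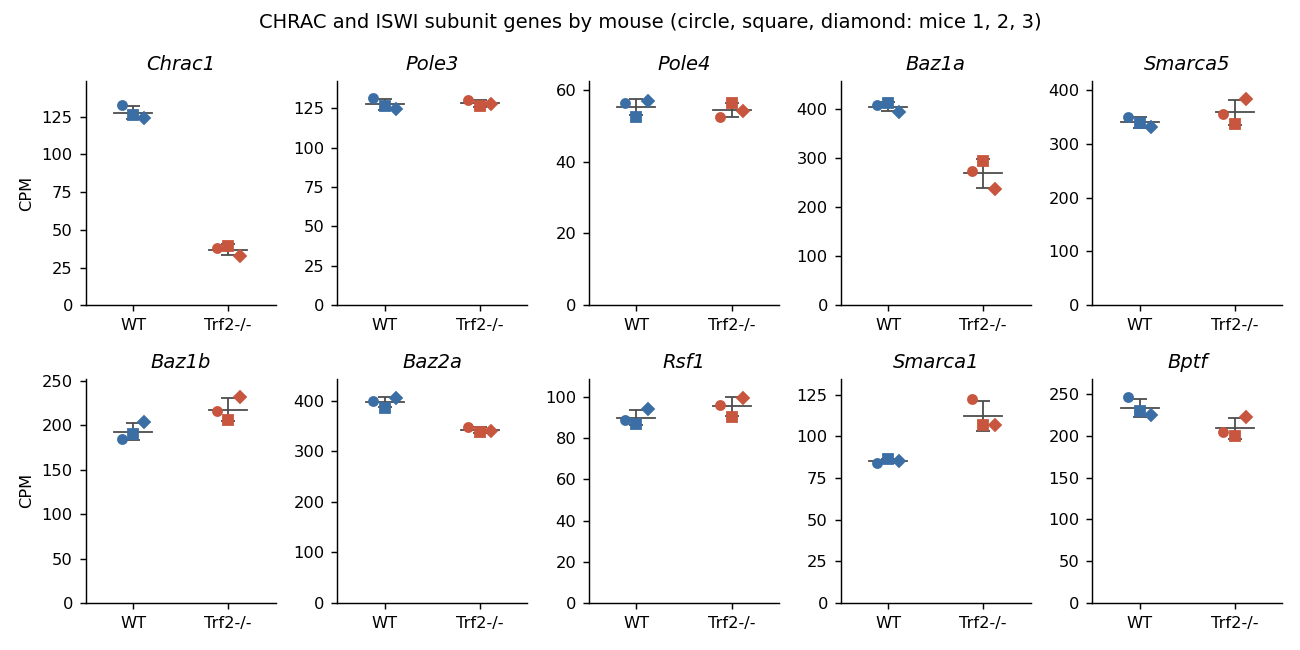
Level of each of the 10 subunit genes in CPM (vertical axis, from 0, with a scale of its own in each panel) in 3 WT and 3 Trf2-/- mice. Symbols are single mice, horizontal lines the means and bars the SD of 3 mice. Chrac1 lies between 124.2 and 132.7 CPM in WT and between 32.9 and 39.6 CPM in Trf2-/- testis, while the mice of both genotypes interleave for Pole3 and Pole4.

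Baz1a (ENSMUSG00000035021), the regulatory subunit that Chrac1 and Pole3 join in CHRAC, was at 407.7, 411.7 and 393.8 CPM in the WT mice. In the Trf2-/- mice it was at 274.2, 293.8 and 237.2 CPM. All 3 mutant mice were below all 3 WT mice, and mouse 3 of the mutants, which also had the lowest Chrac1, was the lowest. With n = 3 mice, the WT mean was 404 CPM with an SD of 9.40, and the Trf2-/- mean was 268 CPM with an SD of 28.7. The log2 fold change was -0.59 (SE 0.07, 95% interval -0.76 to -0.43), a 1.51-fold decrease (adjusted p = 0.000748, edgeR). Its SD of log2 CPM of 0.16 among the mutant mice was the largest of any of the 10 genes in either genotype. Smarca5 (ENSMUSG00000031715), the ATPase of CHRAC, was at 350.7, 338.6 and 331.3 CPM in WT and 356.0, 338.0 and 383.6 CPM in Trf2-/- testis. The genotypes of Smarca5 overlapped, and its log2 fold change was 0.08 (SE 0.05, 95% interval -0.05 to 0.20, adjusted p = 0.302, edgeR). Of the 3 CHRAC genes besides Chrac1, then, 1 was lower (Baz1a), where 20.2% of all tested genes were, and Pole3 and Smarca5 did not pass the test.

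Baz2a (ENSMUSG00000040054), the large subunit of NoRC, was at 400.3, 386.6 and 405.8 CPM in WT and 348.2, 338.7 and 340.4 CPM in Trf2-/- testis. The genotypes did not overlap, and the decrease was small. Its log2 fold change was -0.22 (SE 0.04, 95% interval -0.31 to -0.12, adjusted p = 0.00504, edgeR), and it was -0.12 with scaling by library size alone (adjusted p = 0.0414, edgeR). Baz1b (ENSMUSG00000002748), the large subunit of WICH, was at 185.0, 190.7 and 203.4 CPM in WT and 215.9, 205.6 and 231.5 CPM in Trf2-/- testis. All mutant mice were above all WT mice, although the highest WT and the lowest mutant mouse were close. The log2 fold change of 0.17 (SE 0.06, 95% interval 0.04 to 0.30) was just past the threshold (adjusted p = 0.0492, edgeR), and it was 0.27 with library size alone. This call of Baz1b was lost in 5 of 12 alternatives, including those without WT mouse 1 (adjusted p = 0.162, edgeR), WT mouse 2 (0.145), Trf2-/- mouse 1 (0.113) or Trf2-/- mouse 3 (0.0770). Rsf1 (ENSMUSG00000035623), the histone-binding subunit of RSF, was at 88.9, 87.0 and 93.9 CPM in WT and 96.2, 90.4 and 99.6 CPM in Trf2-/- testis. Its genotypes overlapped (log2 fold change 0.08, SE 0.06, adjusted p = 0.265, edgeR).

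Smarca1 (ENSMUSG00000031099), the ATPase of NURF, is on the X chromosome and was at 83.8, 86.6 and 85.3 CPM in the WT mice. It was at 122.6, 106.9 and 106.8 CPM in the Trf2-/- mice. The WT mice were close together and every mutant mouse was higher, with mouse 1 the highest. The log2 fold change was 0.40 (SE 0.06, 95% interval 0.26 to 0.54), a 1.32-fold increase (adjusted p = 0.00187, edgeR). Bptf (ENSMUSG00000040481), the large subunit of NURF that binds methylated histone H3, was at 246.0, 229.9 and 225.1 CPM in WT and 204.1, 199.5 and 222.9 CPM in Trf2-/- testis. The genotypes did not overlap but nearly touched, and the log2 fold change of -0.16 (SE 0.06, 95% interval -0.29 to -0.03) missed the threshold (adjusted p = 0.0574, edgeR). Bptf passed in 4 of 12 alternatives, among them DESeq2 (adjusted p = 0.0410) and the fit without Trf2-/- mouse 3 (log2 fold change -0.21, adjusted p = 0.00747, edgeR), and was at -0.07 with library size alone (adjusted p = 0.368, edgeR).

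Of the 9 subunits other than Chrac1, 2 were thus lower (Baz1a and Baz2a) and 2 higher (Smarca1 and Baz1b), and 5 did not pass an adjusted p of 0.05. Over all tested genes 20.2% were called lower and 11.2% higher, so counts of 2 and 2 of 9 are near the background. With scaling by library size alone, Smarca5 and Rsf1 were also past the threshold, and the count became 2 lower and 4 higher. None of the 9 changed at least 2-fold (0 by edgeR, also at an unadjusted p under 0.05, and 0 by DESeq2), where 4.90% of all tested genes did. The genotypes did not overlap for 5 of the 9, against 49.2% of all tested genes. Their median log2 fold change was 0.01, and that of all tested genes was 0.04.

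**Figure D2:**
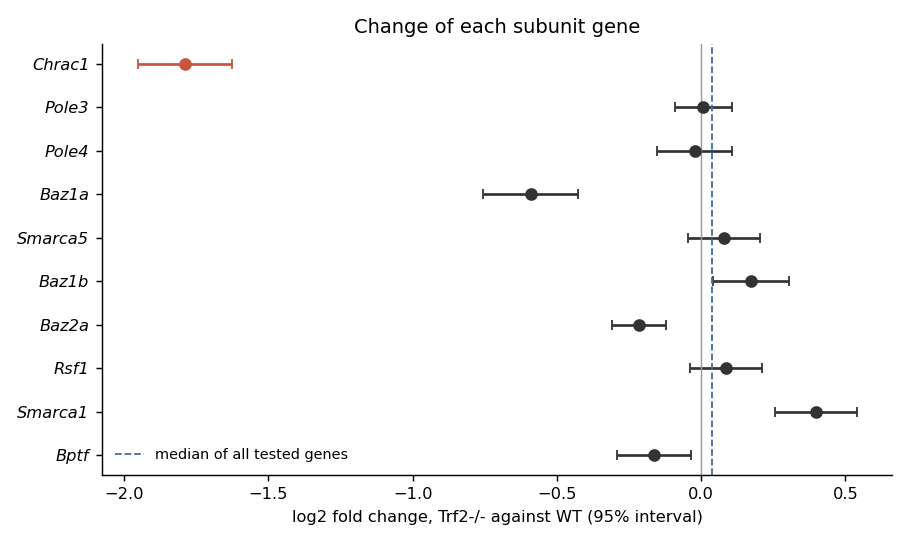
Log2 fold change of each of the 10 genes in Trf2-/- against WT testis (horizontal axis). Points are edgeR estimates with 95% intervals from 3 mice per genotype, and the dashed line is the median of all tested genes, 0.04. Chrac1, in red, was selected on this comparison and lies at -1.79, while the other 9 genes lie between -0.59 and 0.40.

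The levels per length were then put in order. By RPKM, Chrac1 was the most abundant of the 10 genes in WT testis, at 117 ± 4.07 RPKM (SD, n = 3 mice). It was followed by Pole3 at 65.5, Baz1a at 57.4, Smarca5 at 52.6 and Baz2a at 46.8 RPKM. Baz1b at 29.7, Pole4 at 22.0, Bptf at 16.8, Smarca1 at 13.9 and Rsf1 at 7.87 RPKM came after them. No neighbours in this WT order overlapped, and all 10 genes were above the median of all tested genes, 6.50 RPKM in WT. In Trf2-/- testis Chrac1 moved down to place 5 at 33.8 ± 3.24 RPKM, and Pole3 at 65.9 and Smarca5 at 55.6 RPKM led the order. There, Baz2a at 40.3, Baz1a at 38.1, Chrac1 and Baz1b at 33.5 RPKM overlapped each with the next. Smarca1 and Bptf exchanged places in the Trf2-/- order, at 18.3 and 15.0 RPKM. RPKM rests on the gene length in the table, which for Chrac1 was 1090 bases. The reference annotation gives 2353 exon bases for Chrac1, so its places in both orders depend on the length used. Its change between genotypes does not.

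**Figure D3:**
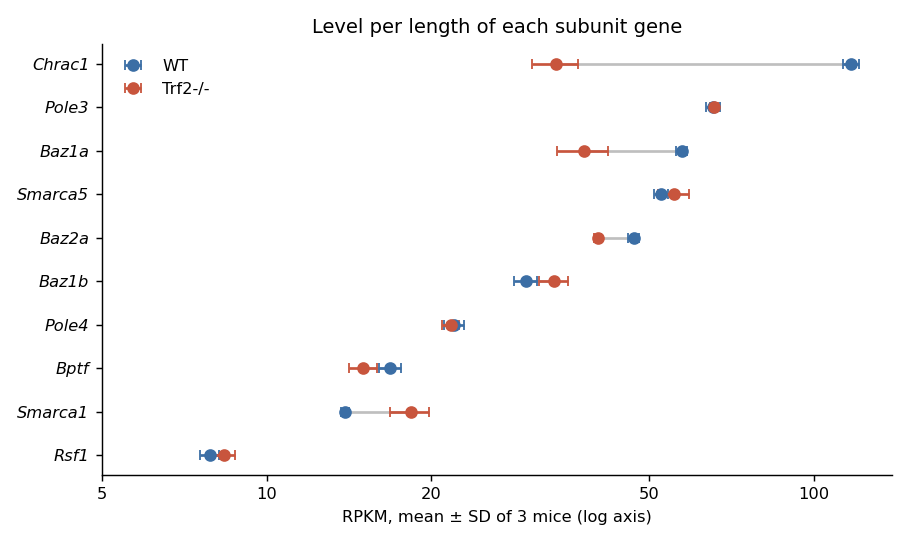
Level per length in RPKM (horizontal log axis) of each of the 10 genes, in order of the WT mean, for WT and Trf2-/- testis. Points are means and bars the SD of 3 mice. Chrac1 goes from 117 to 33.8 RPKM and from place 1 to place 5, and Pole3 stays at 65.5 and 65.9 RPKM. The places of Chrac1 rest on a gene length of 1090 bases.

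Ratios within a mouse do not depend on how libraries are scaled. The ratio of Chrac1 to Pole3, by RPKM, was 1.80, 1.78 and 1.78 in WT and 0.522, 0.560 and 0.459 in Trf2-/- mice. This ratio was thus lower in all mutant mice than in all WT mice. Since Chrac1 was selected on its decrease and Pole3 hardly changed, this separation followed from the selection and is no further finding. The excess of Chrac1 over Pole3 in WT rests on a Chrac1 length of 1090 bases, where the reference annotation gives 2353 exon bases. By CPM, the means of Chrac1 and Pole3 were 127.8 and 127.5 in WT and 36.9 and 128.1 in Trf2-/- testis. The ratio of Pole4 to Pole3 was 0.336 ± 0.0167 in WT and 0.329 ± 0.0172 in Trf2-/- testis (SD, n = 3 mice), and the genotypes overlapped. Baz1a to Smarca5 was 1.09 ± 0.0245 in WT and 0.690 ± 0.116 in Trf2-/- testis, without overlap. The ratio of the ATPases, Smarca1 to Smarca5, was 0.265 ± 0.0108 in WT and 0.331 ± 0.0351 in Trf2-/- testis, also without overlap. These are ratios of RNA and say nothing of protein.

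**Figure D4:**
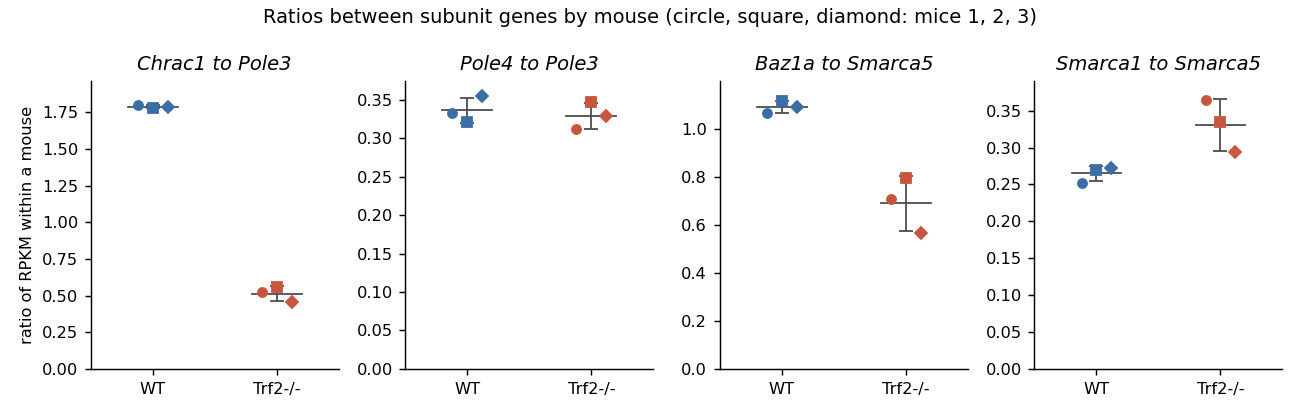
Ratios of RPKM between pairs of subunit genes in each mouse (vertical axes from 0). Symbols are single mice, lines the means and bars the SD of 3 mice. Chrac1 to Pole3 is between 1.78 and 1.80 in WT and between 0.459 and 0.560 in Trf2-/- mice, and Pole4 to Pole3 overlaps between genotypes. Chrac1 was selected on its decrease, so the separation of its ratio is no further finding.

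How far other genes could share reads with the 10 was looked at next. Only the longest coding transcript of each gene was searched, 871 bases for Chrac1, where the reference annotation gives 2353 exon bases. None of the 822 windows of 50 bases, the length of the reads, in that Chrac1 transcript had an exact copy elsewhere in the genome. The same held for Pole4, Baz1b, Smarca1 and Bptf, whereas copies were found for 4.27% of Pole3 windows, 3.32% of Baz2a, 14.0% of Baz1a and 0.253% of Rsf1 windows. For Smarca5 37.5% of windows had a copy on chromosome 4, where the pseudogene Smarca5-ps lies. This was the largest share of the 10 genes, so by this measure alone its level is the least certain. Smarca5-ps itself had 116 to 198 counts per mouse and a log2 fold change of 0.12 (SE 0.13). An antisense gene listed under the symbol Eif2c2 overlaps Chrac1 and had 52 to 82 counts per mouse (log2 fold change 0.10, adjusted p = 0.638, edgeR). Whether the authors' counting used the strand is not given in the sources used here. Baz2a shares 37 exon bases with Ptges3, which encodes a co-chaperone of Hsp90 (log2 fold change -0.08, adjusted p = 0.173, edgeR), and overlaps Atp5b without shared exon bases. Rsf1 shares 164 bases with Gm15623 on the opposite strand, and Baz1a shares 346 with Gm20403, which had at most 3 counts in any mouse.

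The difference in Chrac1 was also set beside its neighbours on chromosome 15. Of the 6 other tested genes within 500 kb, 1 was lower and 1 higher. Eif2c2, the nearest on one side, encodes an Argonaute protein and lies 1.04 kb away (log2 fold change -0.16, adjusted p = 0.0642, edgeR). On the other side Trappc9, a subunit of a vesicle trafficking complex 29.2 kb away, was lower by a smaller amount (log2 fold change -0.41, adjusted p = 0.000792, edgeR). Over the 6 mice, the genes whose profile lay nearest to that of Chrac1, among 10305 genes with a mean of at least 10 CPM, were Plxna2, 4933414I15Rik, Ccdc110, Rimbp3 and 1700019L03Rik. Their root mean square distances on the log2 scale were between 0.133 and 0.160. Baz1a was the nearest of the other 9 subunits, at a distance of 0.840 and in place 710. Profiles were taken less the WT mean, so this distance mostly reflects how far the log2 fold changes of the genes differ. The nearest genes named had log2 fold changes between -1.88 and -1.61, around the -1.79 of Chrac1, and Baz1a had the lowest of the 9, -0.59. Since Chrac1 was selected on its decrease, this order restates that decrease and is no finding of shared expression.

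The other genes of the pathway were taken from 6 lists of chromatin factors with 107 genes, of which 106 were tested. Of these 106 genes, 29 were lower and 14 higher, against 20.2% and 11.2% of all tested genes, and their median log2 fold change was -0.03. With scaling by library size alone the split was 20 lower and 27 higher. The count of 14 became 9 without Trf2-/- mouse 1, 7 without WT mouse 1 and 5 without WT mouse 2. None of them changed at least 2-fold. Among 11 other ISWI-linked genes, 1 was lower and 3 were higher. Myo1c, a nuclear myosin found with WICH, fell by 0.40 on the log2 scale (adjusted p = 0.000577, edgeR), and Baz2b, a relative of Baz2a, was at -0.07 without passing. Ercc6, a repair ATPase, and Mybbp1a, a nucleolar protein, each rose by 0.27 (adjusted p = 0.0234 and 0.0115, edgeR), and Rbbp7, a histone chaperone of NURF, was also higher.

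Among 10 genes of DNA polymerase epsilon and of other histone-fold proteins, 3 were lower and 1 higher. Cenpw, a centromere protein, fell by 0.34 on the log2 scale (adjusted p = 0.0152, edgeR), and so did Dr1, a histone-fold repressor of transcription (adjusted p = 0.00593, edgeR). Cenpt, the partner of Cenpw, rose by 0.31 (adjusted p = 0.0355, edgeR). Nfyc, the second highest, was at 0.12 and did not pass (adjusted p = 0.163, edgeR). The remaining lists belong to the other families of remodelers. Of 25 SWI/SNF genes, 9 were lower, with Bcl7b at -0.63 and Smarcb1 at -0.51 the lowest, and 3 higher, with Arid1b and Dpf1 both at 0.30. Of 18 CHD and NuRD genes, 3 were lower, with Chd5 at -0.67 and Mbd3 at -0.39, and 3 higher, with Chd6 at 0.27 and Chd8 at 0.21. Of 30 genes of INO80, SRCAP and TIP60, 11 were lower, with Yeats4 at -0.72 and Ino80c at -0.66, and 1 was higher, Ino80d at 0.21. Of 12 other SNF2 ATPases, 2 were lower, Zranb3 at -0.39 and Btaf1 at -0.25, and 3 higher, with Rad54b at 0.44 and Atrx at 0.37.

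**Figure D5:**
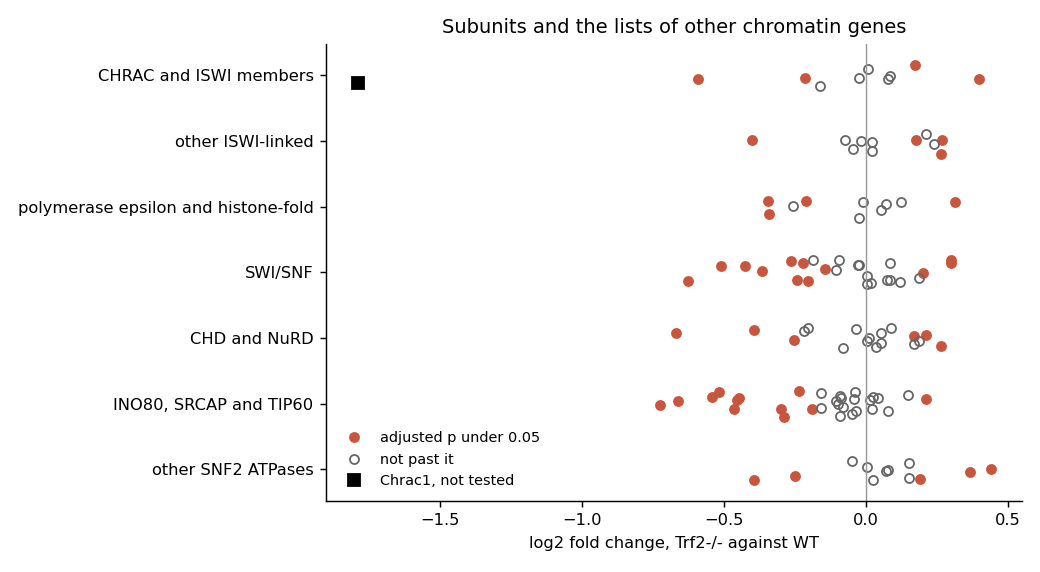
Log2 fold change in Trf2-/- against WT testis (horizontal axis) of the 10 subunit genes and of 106 tested genes in 6 lists of chromatin factors. Filled circles passed an adjusted p of 0.05 in edgeR, open circles did not, and the square is Chrac1, which was not tested. The listed genes lie between -0.72 and 0.44, and Chrac1, selected on this comparison, lies at -1.79.

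Markers of testis cell types moved between the genotypes beside these genes. Of 6 round spermatid markers 5 were lower, while their median log2 fold change was -1.31, and their summed level was 593.5 to 615.3 CPM in WT and 322.2 to 449.9 CPM in Trf2-/- mice. The most abundant, Dkkl1 and Zpbp, both acrosomal, had log2 fold changes of -0.55 and -0.73. The 3 round spermatid markers lower by at least 2-fold were near the floor, at 0.587 to 1.29 CPM in WT. Mouse 3 of the mutants was the lowest in the round spermatid, elongating spermatid and pachytene spermatocyte sums, as it was for Chrac1 and Baz1a. The other subunits did not all follow this order. Baz2a was lowest in mutant mouse 2 (338.7 CPM, against 340.4 CPM in mouse 3), and Bptf was highest in mutant mouse 3 (222.9 CPM). Mutant mouse 3 was the highest in the early spermatocyte, spermatogonia and Sertoli cell sums. All 4 tested elongating spermatid markers were lower, their sum being 1033 to 1062 CPM in WT and 552.0 to 682.3 CPM in Trf2-/- mice, and Odf2 made up most of it, ahead of Odf1. The 3 of them lower by at least 2-fold were at 1.07 to 2.37 CPM in WT. Tnp1 and Prm2, which define these cells, were not tested, with 0 to 4 counts per mouse in both genotypes. The paper dates the first round spermatids near the age of these mice and elongated ones later. The fall of this sum, mostly Odf2, is thus no measure of a loss of elongating spermatids. All 5 pachytene spermatocyte markers were lower as well, with a median of -0.25 and sums of 5357 to 5794 CPM in WT and 3768 to 4512 CPM in Trf2-/- mice. The most abundant of these, Ldhc and Hspa2, had log2 fold changes of -0.70 and -0.17. Early spermatocyte markers went the other way, with 2 of 5 higher, among them Sycp3 at 0.24, a median of 0.22, and sums of 747.2 to 784.3 CPM in WT and 864.5 to 895.2 CPM in mutant mice. Spo11, the second most abundant, was at -0.00235.

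Spermatogonia markers had 1 of 6 higher and none lower, with sums of 182.0 to 200.9 CPM in WT and 184.1 to 238.1 CPM in Trf2-/- mice. Uchl1 and Kit were the most abundant of them, with log2 fold changes of 0.09 and 0.19. Of the somatic cells, 2 of 4 Sertoli cell markers were higher, with sums of 341.6 to 364.8 CPM in WT and 396.7 to 439.9 CPM in mutant mice, among them Cldn11 at 0.19, while Wt1 at 0.18 did not pass. Macrophage markers were higher for 3 of 5, with sums of 142.1 to 165.1 CPM in WT and 160.3 to 319.0 CPM in Trf2-/- mice, so that these ranges overlapped. The most abundant of these in WT were Mrc1 at 0.16, not past the threshold, and Csf1r at 0.59, and the largest increase was that of Lyz2, at 1.36 (adjusted p = 0.0203, edgeR), from 23.4 CPM in WT to 59.6 CPM in Trf2-/- testis. Trf2-/- mouse 1, the highest in the macrophage sum, was also the highest in the endothelial and peritubular cell sums and for Smarca1. Trf2-/- mice 2 and 3 had macrophage sums of 192.0 and 160.3 CPM, with Smarca1 at 106.9 and 106.8 CPM. Leydig cell markers had 1 of 5 higher, with sums of 173.5 to 350.9 CPM in WT and 176.4 to 317.2 CPM in mutant mice, and Cyp11a1 and Hsd3b1 at -0.05 and 0.32. Peritubular cell markers had 1 of 4 lower, with sums of 370.6 to 455.0 and 421.0 to 468.4 CPM. The lower one was Myl9 at -0.31 (adjusted p = 0.0023, edgeR), while Acta2 and Myh11, at 0.16 and 0.25, did not pass. Endothelial cell markers had 1 of 4 higher, Cdh5 at 0.45, with sums of 28.0 to 33.4 and 35.4 to 44.2 CPM. Kdr, at 0.48, did not pass. The part of any of these cell types in the values of Chrac1, Baz1a, Baz2a, Smarca1 and Baz1b was not tested.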

How the data were processed

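Total RNA of whole testes of 3 WT and 3 Trf2-/- mice was sequenced by the authors as single-end reads of 50 bases from stranded libraries depleted of ribosomal RNA. The submitters' processing notes name CASAVA 1.8.2, TopHat2 2.0.10, Bowtie2 2.1.0, HTSeq 0.5.4p3 and DESeq2 1.0.19, and the build is NCBIM37 (mm9). The annotation release and the strand setting of the counting are not given in the sources used here. The authors deposited raw read counts per gene and mouse, which were used here together with the gene lengths of the same table. Another 12 deposited columns of normalized values per mouse were not used.

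Groups were taken from the genotype labels. Counts were tested with edgeR 4.0.16 (R 4.3.3) by filterByExpr, TMM factors, glmQLFit and glmQLFTest on genotype, and p-values were adjusted by Benjamini-Hochberg over 16924 genes. The threshold was an adjusted p of 0.05. Standard errors came from the log2 fold change and its F statistic. The biological coefficient of variation was 0.0838. With 3 mice per genotype, the smallest p of an exact permutation test is 0.1. Library totals were 15187062 to 29859347 reads on genes. Whether the mice of a genotype were littermates is not given, and p-values measure the spread between these samples. No pair of mice of the same genotype differed by less than the sampling noise (chi-square at least 3.51 times its degrees of freedom). The scripts were tested on simulated data. Profiles were compared as log2 of CPM plus 0.5, less the WT mean. Windows of 50 bases were matched to the NCBIM37 genome, and motifs were searched in RefSeq promoters of GRCm38.p6. Members match the reference annotation in span except Smarca1. For 2 listed symbols with 2 entries each, Srcap and Rad54b, the longer gene was used.

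The members and lists were chosen with earlier results of these data known. Named genes are the members, Tbpl1, genes overlapping a member, the genes next to Chrac1 on its chromosome, in the order of p and by profile, the 2 lowest and 2 highest genes of each chromatin list, and the 2 genes of each marker list most abundant in WT. Rbbp7, Tnp1, Prm2, Lyz2, Myl9 and Smarca5-ps were added for a result that turned on them. Alternatives were DESeq2 1.42.0 (Wald test), its size factors, library size alone, minimum counts of 1 in all or of 10 per mouse, a block for replicate numbers, fits lacking 1 mouse, and an adjusted p of 0.01.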

Additional observations from a re-analysis of the deposited data

How the results depend on the processing

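The log2 fold change of Chrac1 stayed between -1.86 and -1.70 in 12 alternatives, and Baz1a, Baz2a and Smarca1 stayed past the threshold in all 12. Chrac1 was selected on its decrease in these same mice, so its range shows only how far processing and single mice moved the estimate. None of the 9 other subunits changed direction past the threshold. Among the 106 listed chromatin genes, however, more were lower than higher in the main fit (29 and 14), and fewer with library size alone (20 and 27). The number of the 9 other subunits called higher, 2, became 1 with at least 10 counts in every mouse, 4 with library size alone and 1 at an adjusted p of 0.01, and was 1 to 2 with single mice left out. It was 1 without WT mouse 1, WT mouse 2, Trf2-/- mouse 1 or Trf2-/- mouse 3, each time by the loss of Baz1b. Of the 106 listed chromatin genes, 18 in place of 29 were lower at an adjusted p of 0.01. The number higher, 14, became 27 with library size alone and 2 at an adjusted p of 0.01, and was 5 to 13 with single mice left out (9 without Trf2-/- mouse 1, 7 without WT mouse 1, 5 without WT mouse 2). Library size alone moved the median of all genes from 0.04 to 0.13 on the log2 scale. Smarca5 (0.17, adjusted p = 0.0365, edgeR) and Rsf1 (0.18, adjusted p = 0.0327, edgeR) then passed. Except for that shift and the stricter thresholds, the cause of these moves was not tested.

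Same-numbered mice of both genotypes did not deviate together (correlations -0.0807, -0.127 and -0.0925, with 0 of 6 mice closest to their own number). No pairing by replicate number was thus seen, though a shared litter or handling of such mice was not tested. With the replicate number as a block, 2 subunits were lower and 2 higher, and 25 and 13 of the listed genes, and Chrac1 was at -1.79. Each subunit had at least 520 counts in each mouse, and 3 mice per genotype limit the precision.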
